A study of Mus musculus with 6 samples.

Results

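TGF-beta signalling genes were read in a mouse haematopoietic progenitor clone before and after its inducer of Evi1 was taken away. The set holds the ligand gene Tgfb1, the receptor genes Tgfbr1 and Tgfbr2, the Smad genes Smad2, Smad3, Smad4, Smad6 and Smad7, and the repressor genes Ski and Skil. Its members were chosen as every probe set that the platform annotation pairs with exactly 1 gene symbol, where that symbol is 1 of the 10 named genes. This gave 23 probe sets of 45037, and 10 genes of 18193.

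The cells are the myeloid clone C6, made on the Rosa26rtTA C57BL/6J background, in which a doxycycline-responsive transactivator is present. They carry the vector pRRL.TET.Evi1.IRES.EGFP, from which the drug doxycycline induces a codon-optimized murine Evi1 together with a green fluorescent marker, and the series describes the clone as dependent on Evi1. The doxycycline group (3 arrays) was kept under 1 µg/ml of the drug, and the withdrawal group (3 arrays) was taken 48 h after its removal. The medium of both groups held interleukin 3 at 20 ng/ml, and stem cell factor, Flt3 ligand and interleukin 11 at 50 ng/ml each. All arrays come from 1 clone, so other clones are not represented, and the loss of doxycycline itself and the loss of induced Evi1 cannot be told apart. The labels do not say that replicates were separate cultures, so p-values cover just the spread among these 6 arrays, which may be technical. Array medians ran from 5.22 to 5.27, and no arrays held identical values.

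TGF-beta is released from a latent complex and binds a type II receptor (Tgfbr2), which activates a type I receptor (Tgfbr1). The type I receptor phosphorylates Smad2 and Smad3, which join Smad4 and enter the nucleus to regulate transcription, while Smad6 and Smad7 block the receptors and Ski and Skil block the Smad complex on DNA. In blood-forming cells the pathway is best known for holding stem and progenitor cells out of cycle. Evi1 is known to bind Smad3 and to repress TGF-beta responses, and the arrays allow the transcript levels of the pathway to be set against each other with and without its inducer.

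None of the 10 genes differed past the threshold after withdrawal (limma, adjusted p below 0.05 over all 45037 probe sets). The count of called members was 0 of 23 probe sets, where 1.97% of all probe sets were called, and 0 of 10 genes, where 2.77% of all genes were called. At an unadjusted p below 0.05 there were 7 of 23 probe sets (30.4%), 3 higher and 4 lower, against 14.3% of all probe sets. In the same 7 the groups did not overlap, against 20.8% of all probe sets. An exact two-sided permutation test over the arrays gave p = 0.1 for each of these 7, which is the smallest p that 3 against 3 arrays can give. Of these 7 probe sets 3 lay at or below the median level of all probe sets. Read from the brightest probe set per gene, 2 of 10 genes had an unadjusted p below 0.05 in limma, against 16.3% of all genes. The probe sets of 1 gene share their RNA and often their target, so these shares are a description and not a test of the set. The member with the smallest adjusted p was Smad6, which had a log2 difference of -0.53 after withdrawal and missed the threshold at adjusted p = 0.0755 in limma.

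The intervals of the other 9 genes were narrowest for Tgfbr2 (-0.11 to 0.18) and widest for Ski (-0.34 to 0.37). They do not show that a gene was unchanged. Differences are log2 values of withdrawal minus those of doxycycline, ± the standard error from limma with n = 3 arrays a group, and intervals are 95% intervals for 1 probe set at a time. On the brightest probe set per gene, the intervals of these 9 genes ran from -0.37 (Smad4) to 0.47 (Tgfb1), which is 1.29-fold lower to 1.39-fold higher. The median difference of the 10 genes was 0.02 and the median absolute difference 0.15, against 0.01 and 0.09 over all genes. Of the 23 probe sets 9 lay at or below the median level of all probe sets (5.24). RMA values can be compressed at low signal, and whether these were was not tested. In cells measured in bulk, fewer cells of a kind and less RNA per cell cannot be told apart.

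**Figure D1:**
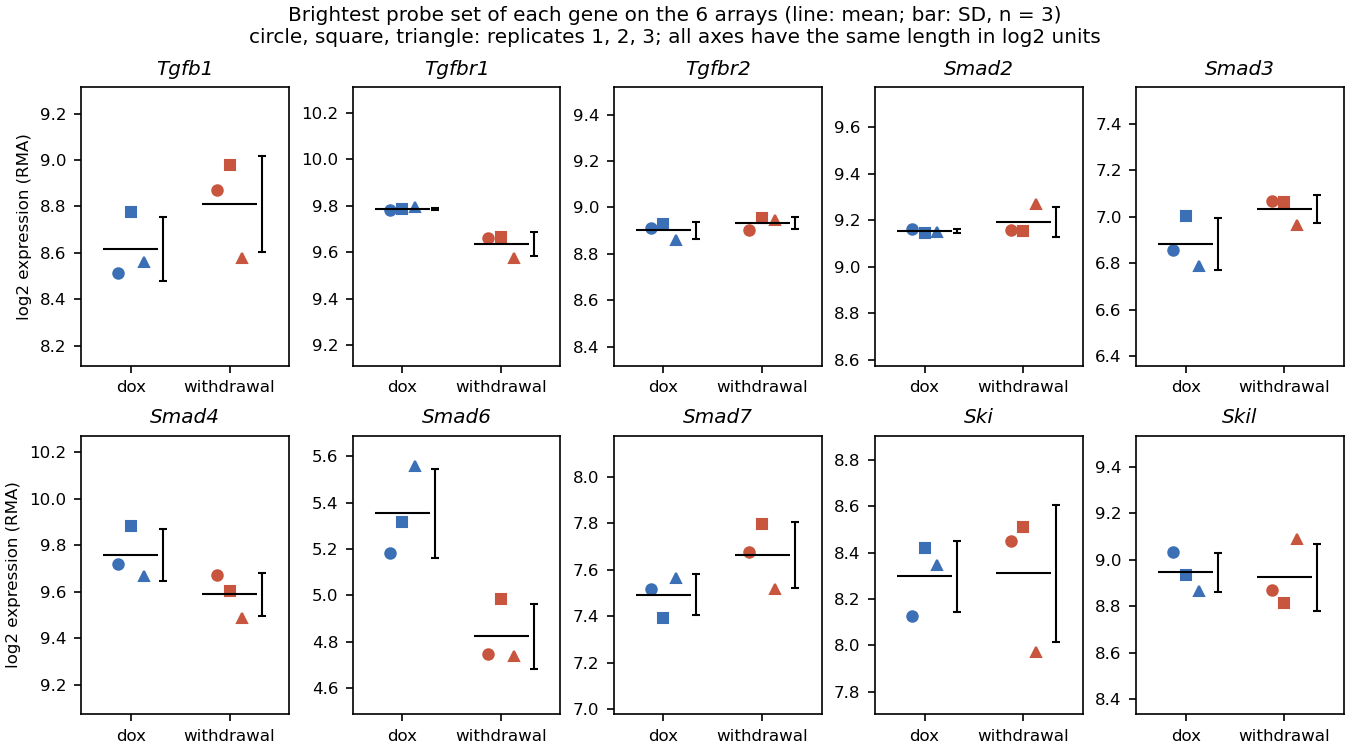
Log2 expression (RMA) of the brightest probe set of each of the 10 genes on the 3 doxycycline arrays (blue) and the 3 withdrawal arrays (red), with the group mean (line) and SD (bar, n = 3); each vertical axis has the same length in log2 units but starts at its own level. The groups lie apart for Tgfbr1 and Smad6 and overlap for the other 8 genes. Over all probe sets the groups did not overlap in 20.8%.

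The ligand gene Tgfb1 encodes the main TGF-beta of blood cells. On its brighter probe set (1420653_at) it was at 8.87, 8.98 and 8.58 after withdrawal and at 8.51, 8.77 and 8.56 under doxycycline. The highest arrays were withdrawal replicates 1 and 2, but withdrawal replicate 3 lay among the doxycycline arrays. The difference was 0.19 ± 0.12 (interval -0.09 to 0.47, limma adjusted p = 0.544). Withdrawal replicate 3 and doxycycline replicate 1 also had negative scores on the second principal component (-23.0 and -11.4), against 2.10 to 12.4 for the other arrays. That component held 31.9% of the variance of the brighter probe sets. With both arrays left out the difference of Tgfb1 was 0.26 (limma adjusted p = 0.405). The second probe set (1445360_at) had the opposite sign, at -0.09 ± 0.11.

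Tgfbr1, the type I receptor kinase, was at 9.66, 9.67 and 9.58 after withdrawal and at 9.78, 9.79 and 9.79 under doxycycline (1420895_at). The 3 doxycycline arrays were nearly equal and all lay above the withdrawal arrays. The difference was -0.15 ± 0.06 (interval -0.30 to -0.01, limma adjusted p = 0.329), a level 1.11-fold lower. The other probe sets of Tgfbr1 were dim, at the 25.7th and 12.6th percentile of all probe sets by level, and gave -0.15 ± 0.09 and 0.02 ± 0.12.

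Tgfbr2, the type II receptor that binds the ligand, was at 8.90, 8.95 and 8.95 after withdrawal and at 8.91, 8.93 and 8.86 under doxycycline (1426397_at). The arrays of the groups intermingled, with a difference of 0.03 ± 0.06 and an interval of -0.11 to 0.18. A dimmer probe set (1425444_a_at, 44.4th percentile) read 5.06, 5.12 and 4.95 against 4.88, 4.45 and 4.69, so that its groups were apart. Its difference of 0.37 ± 0.11 was the highest of all 23 probe sets and did not pass (limma adjusted p = 0.186). The third probe set was dimmer still, at the 5.23rd percentile, with 0.12 ± 0.07.

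Smad2 and Smad3 are the receptor-activated Smads of TGF-beta and activin. Smad2 was at 9.16, 9.15 and 9.27 after withdrawal and at 9.16, 9.15 and 9.15 under doxycycline (1420634_a_at). Apart from withdrawal replicate 3 these values were nearly identical, and the difference was 0.04 ± 0.07 (interval -0.11 to 0.19). Its other probe set (1442062_at) gave -0.11 ± 0.10. Smad3, the partner that Evi1 is known to bind, was at 7.07, 7.07 and 6.96 after withdrawal and at 6.86, 7.004 and 6.79 under doxycycline (1454960_at). Doxycycline replicate 2 lay above withdrawal replicate 3, so the groups overlapped, and the difference was 0.15 ± 0.08 (interval -0.03 to 0.34, limma adjusted p = 0.461). Both dimmer Smad3 probe sets were closer to 0, at 0.01 ± 0.09 and -0.09 ± 0.11.

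Smad4, the shared partner of the activated Smads, was lower after withdrawal on each of its 3 probe sets, none of which passed. On 1422486_a_at it was at 9.36, 9.32 and 9.31 after withdrawal and at 9.58, 9.54 and 9.55 under doxycycline, with groups apart and a difference of -0.23 ± 0.06 (interval -0.37 to -0.08, limma adjusted p = 0.136). On 1422485_at it was at 8.64, 8.66 and 8.59 against 8.82, 8.79 and 8.87, again apart, with -0.19 ± 0.06 (limma adjusted p = 0.217). The brightest, 1422487_at, gave -0.17 ± 0.09 with overlapping groups. The 3 probe sets therefore read 1.12-fold to 1.17-fold lower levels, and with their mean taken as the value of the gene the difference was -0.20 (limma adjusted p = 0.104). The probe set 1422486_a_at alone passed when only probe sets above the median level were tested (adjusted p = 0.0324) and with the trend and robust options of limma (adjusted p = 0.0169).

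**Figure D2:**
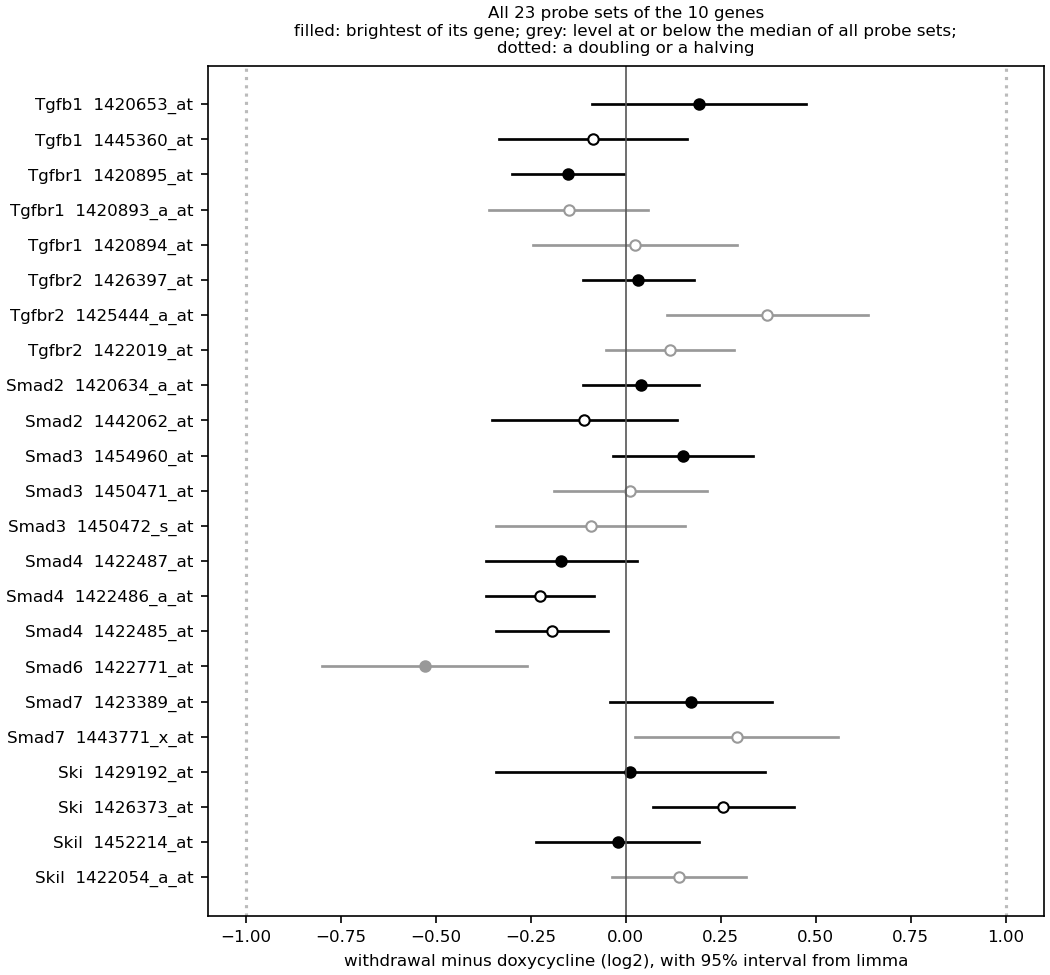
Difference between withdrawal and doxycycline on the log2 scale for all 23 probe sets, with 95% intervals from limma; filled points mark the brightest probe set of a gene, grey marks a level at or below the median of all probe sets, and dotted lines stand at -1 and 1. Every interval lies inside the dotted lines, the Smad4 probe sets lie together below 0, and Smad6 lies farthest from 0 at -0.53.

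The inhibitory Smads had differences of opposite sign. Smad6, which mainly restrains BMP receptors, has a single probe set (1422771_at), which was dim, at the 47.9th percentile. It was at 4.75, 4.99 and 4.74 after withdrawal and at 5.18, 5.32 and 5.56 under doxycycline. Every withdrawal array was below every doxycycline array, with a difference of -0.53 ± 0.12 and an interval of -0.80 to -0.26, which is 1.197-fold to 1.74-fold lower. A difference at least as large, in either direction, was seen for 1.71% of all genes. The adjusted p of 0.0755 became 0.0311 with the trend and robust options of limma and 0.0433 when each gene was fitted once, on the mean of its probe sets. It ranged from 0.114 to 0.208 with 1 array left out, and was 0.216 without withdrawal replicate 3 and doxycycline replicate 1. The difference stayed between -0.61 and -0.43.

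Smad7, which binds the activated TGF-beta receptor and draws ubiquitin ligases to it, was at 7.68, 7.80 and 7.52 after withdrawal and at 7.52, 7.39 and 7.57 under doxycycline (1423389_at). Withdrawal replicate 3 fell among the doxycycline arrays. The difference was 0.17 ± 0.09 (interval -0.04 to 0.39, limma adjusted p = 0.467). A dim probe set (1443771_x_at, 25.6th percentile) read 4.21, 3.77 and 3.91 against 3.62, 3.69 and 3.70, a difference of 0.29 ± 0.11 that did not pass. Whether Smad6 and Smad7 differed from each other was not tested.

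The promoter window of Smad6 is shown because Smad6 had the smallest adjusted p among the members and its window held a palindromic Smad-binding sequence. The window runs from 250 bases before to 50 bases after the gene's start, at chr9:64022010-64022309 on the minus strand of GRCm38.p6, from RefSeq, and the capitals mark GTCTAGAC.
Smad6: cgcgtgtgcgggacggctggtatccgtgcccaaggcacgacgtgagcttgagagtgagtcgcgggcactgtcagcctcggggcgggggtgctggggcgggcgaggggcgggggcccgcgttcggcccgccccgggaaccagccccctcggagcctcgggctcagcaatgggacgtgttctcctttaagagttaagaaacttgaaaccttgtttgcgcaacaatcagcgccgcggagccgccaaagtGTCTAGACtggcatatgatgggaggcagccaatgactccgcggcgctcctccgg
The motif begins 4 bases before the start. It reads the same on both strands and was present in 70 of 32851 windows of the same length (0.213%), and in 1 of the 7 windows searched for 6 member genes. No window of Smad2, Smad4, Smad7 or Skil was searched, so Smad6 is not shown to be the only member with the motif. Member windows on 1 chromosome were left out of the search by a filter that the count over all windows did not use. On both strands of these 7 windows, the Smad box CAGAC was found in 2 (Tgfbr2 and 1 of the 2 windows of Tgfbr1, against 49.6% of all windows). The GC-rich element GGCGCC was found in 2 (Ski and the other window of Tgfbr1, against 11.9% of all windows). Those 2 windows were 85.3% and 74.7% GC, against a median of 52.7% over all windows. Whether GC content accounts for the matches was not tested. GATAAGATA, part of a sequence that Evi1 can bind, was found in 0 of 7, against 0.113% of all windows. No motif searched contains another. A match is a run of letters and not evidence of binding.

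Ski and Skil encode related repressors that hold Smad complexes inactive. The 2 probe sets of Ski had the same sign and different sizes. On 1429192_at it was at 8.45, 8.51 and 7.97 after withdrawal and at 8.13, 8.42 and 8.35 under doxycycline, where withdrawal replicate 3 was the lowest of all 6 arrays, and the difference was 0.01 ± 0.15. On 1426373_at it was at 8.21, 8.24 and 8.18 against 7.83, 8.07 and 7.95, with groups apart and a difference of 0.26 ± 0.08 (interval 0.07 to 0.44, limma adjusted p = 0.195).

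Skil was at 8.87, 8.81 and 9.09 after withdrawal and at 9.03, 8.94 and 8.87 under doxycycline (1452214_at), a difference of -0.02 ± 0.09 with an interval of -0.24 to 0.19. The dim probe set 1422054_a_at gave 0.14 ± 0.08. Skil lies on chromosome 3 with Mecom, the gene of the natural Evi1, and 10 protein-coding genes start between them in the RefSeq table of GRCm38.p6. The 3 probe sets of Mecom were all dim, at the 21.1st, 16.3rd and 0.977th percentile, and differed by -0.10 ± 0.13, 0.13 ± 0.09 and -0.04 ± 0.07. They may not read the codon-optimized transgene and so do not check the labels.

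Of the 9 members with several probe sets, 4 (Tgfbr2, Smad4, Smad7 and Ski) had differences of 1 sign on all of them and 5 did not. With no member past the threshold, no gene was named for likeness to one.

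**Figure D3:**
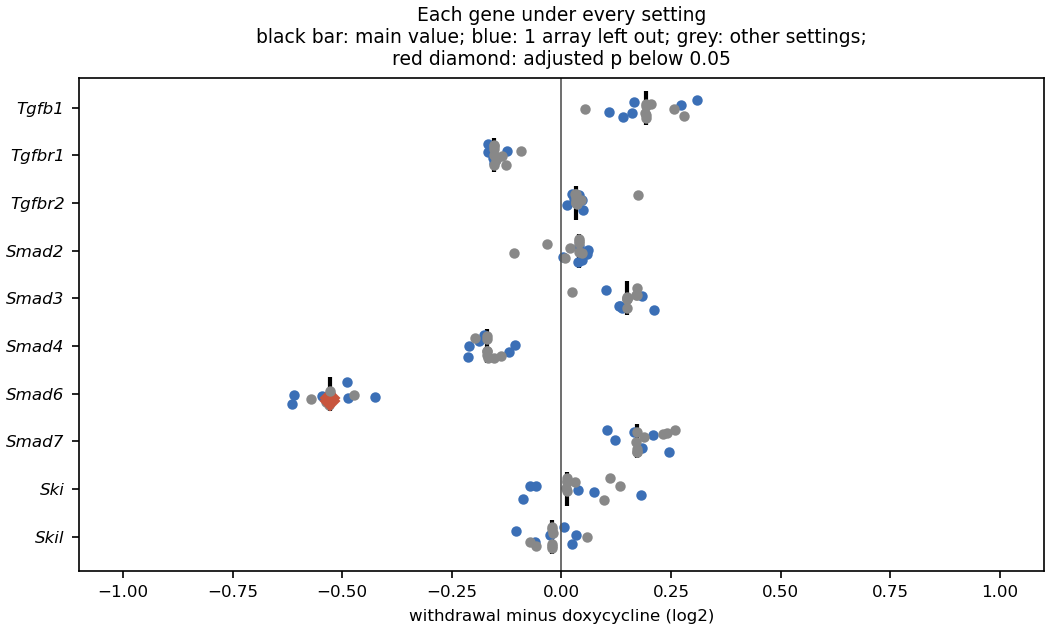
Difference on the log2 scale of each of the 10 genes under every setting in which it was fitted; the black bar is the main value, blue points leave out 1 array, grey points are the other settings and red diamonds have an adjusted p below 0.05. Smad6 has no point for the level filter, as its probe set lies below the median level. Red diamonds occur for Smad6 alone, whose values stay between -0.61 and -0.43, while Smad2, Ski and Skil have points on both sides of 0.

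Around the members, 115 of 125 further genes of the pathway on 7 lists were measured, and 4 passed the threshold, which is 3.48% against 2.77% of all genes. Of these Jun and Wwp1 rose, and Fkbp1a and Tsc22d1 fell. The median difference of the 115 genes was 0.01, the same as over all genes.

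Tsc22d1, first found as a transcript stimulated by TGF-beta, was the 1 gene called among 23 measured response genes. It was at 9.60, 9.68 and 9.44 after withdrawal and at 10.43, 10.49 and 10.45 under doxycycline. Every withdrawal array was below every doxycycline array, with a difference of -0.88 ± 0.08 (limma adjusted p = 0.00255), and it passed whichever of the 6 arrays was left out. Among its 7 probe sets 3 passed, all lower, while the brightest one without _s_, _x_ or _a_ in its name (1435952_at) gave 0.13 ± 0.13 (adjusted p = 0.723), so its probe sets disagreed. Tgm2, a transglutaminase that TGF-beta induces in many cells (0.47 ± 0.09), and Ldlrad4, a feedback inhibitor (0.35 ± 0.17, at a dim 4.32 against 3.96), did not pass. Tgfbi, a matrix protein named for its induction by TGF-beta, differed by -0.34 ± 0.07 (adjusted p = 0.0572). The cell cycle inhibitor genes Cdkn1a (0.09 ± 0.08), Cdkn2b (0.01 ± 0.06) and Cdkn1c (-0.17 ± 0.07, at a dim 4.44 against 4.61, with groups apart) did not pass.

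Fkbp1a, which encodes FKBP12, a protein that keeps type I receptors inactive, was the 1 gene called of 8 on the list of BMP Smads and adaptors. It was at 10.71, 10.68 and 10.55 after withdrawal and at 11.20, 11.13 and 11.06 under doxycycline. The groups were well apart, with a difference of -0.48 ± 0.08 (limma adjusted p = 0.0259), and all 5 of its probe sets were lower, 3 of them past the threshold. The BMP Smads Smad1 (-0.27 ± 0.08) and Smad5 (-0.18 ± 0.07) were also lower on every withdrawal array but did not pass, at adjusted p = 0.155 and 0.275 in limma. The third BMP Smad, Smad9, gave -0.08 ± 0.08 with overlapping groups, at a dim 4.78 against 4.86.

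Wwp1, a ubiquitin ligase that with Smad7 marks Tgfbr1 for destruction, was the 1 gene called of 14 on the list of turnover and brakes. It was at 8.81, 8.74 and 8.82 after withdrawal and at 8.43, 8.46 and 8.43 under doxycycline. All withdrawal arrays were higher, with a difference of 0.35 ± 0.06 (limma adjusted p = 0.0383). This was the 1 of its 3 probe sets that passed, as 1427098_at gave 0.35 (adjusted p = 0.0761) and 1452299_at 0.07 (adjusted p = 0.737), and with averaged probe sets the call of Wwp1 was lost (adjusted p = 0.0508). The related ligases Smurf1 (0.08) and Smurf2 (-0.03) did not pass. Jun, a subunit of the AP-1 factor that binds DNA beside Smad3, was the 1 gene called of 25 nuclear partners. It was at 9.63, 9.57 and 9.40 after withdrawal and at 8.97, 9.01 and 9.04 under doxycycline, a difference of 0.53 ± 0.08 (limma adjusted p = 0.0207) with both probe sets past the threshold. Zeb2, a repressor that binds activated Smads, differed by -0.41 ± 0.09 and Dach1 by 0.41 ± 0.14, and neither passed.

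Fkbp1a and Wwp1 did not pass whichever of the 6 arrays was left out, where their adjusted p in limma reached 0.114 and 0.158. Jun passed only when withdrawal replicate 3 was the one left out, and its adjusted p otherwise reached 0.103. In a fit on the 4 arrays that remain without withdrawal replicate 3 and doxycycline replicate 1, added after the data were seen, only Tsc22d1 of the 4 genes passed (adjusted p = 0.0447), while Fkbp1a (0.170), Wwp1 (0.216) and Jun (0.0919) did not.

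**Figure D4:**
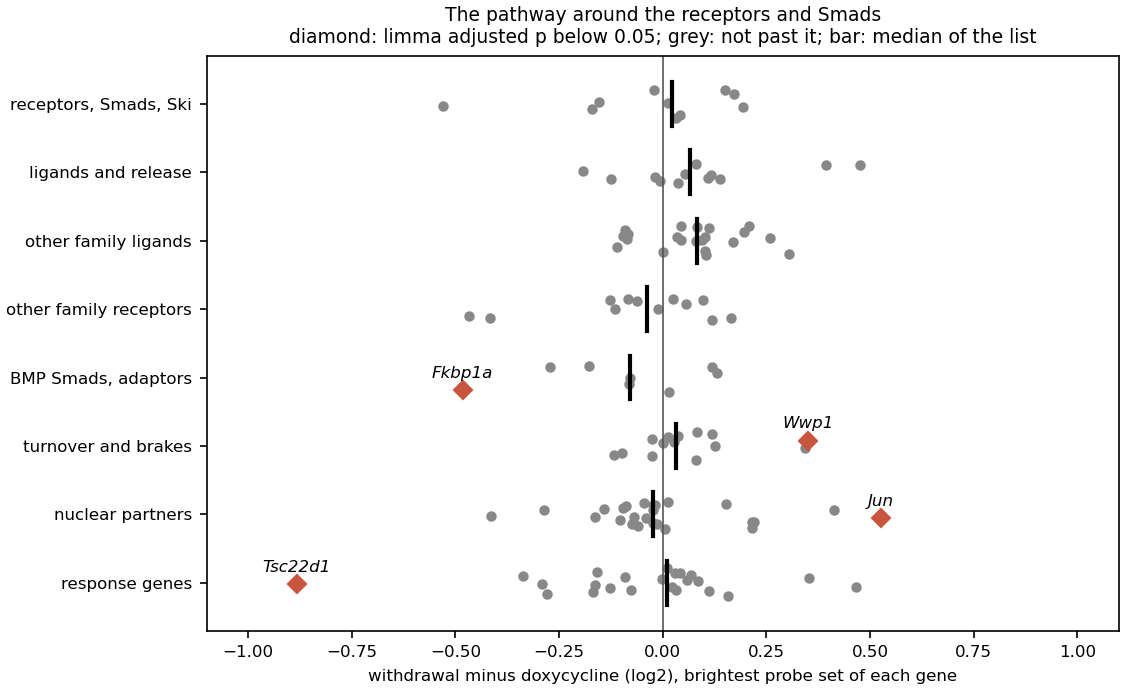
Difference between withdrawal and doxycycline on the log2 scale for the brightest probe set of each measured gene, for the 10 members (top) and the 7 lists around them; red diamonds passed an adjusted p of 0.05 in limma, grey points did not, and the black bar is the median of a list. The 4 diamonds are Fkbp1a, Wwp1, Jun and Tsc22d1, and the medians lie between -0.08 and 0.08.

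The remaining lists had no gene called by limma. At an unadjusted p below 0.05, where 16.3% of all genes lie, they held 3 of 12, 3 of 21 and 2 of 12 genes in the order given here, and the other lists 3 of 8 (BMP Smads and adaptors), 2 of 14 (turnover and brakes), 5 of 25 (nuclear partners) and 5 of 23 (response genes). Of 12 measured genes for ligands and their release 0 passed, and the largest differences were those of Furin, the protease that cleaves the TGF-beta precursor (0.48 ± 0.10, limma adjusted p = 0.0686), and Tgfb3 (0.39 ± 0.12, at a dim 4.02 against 3.62). Of 21 other ligands and antagonists of the family 0 passed. Inhba, whose protein forms activin A, differed by 0.30 ± 0.06 (limma adjusted p = 0.0607) and Nog, a BMP antagonist, by 0.26 ± 0.11, at a dim 3.99 against 3.73. Of 12 other receptors 0 passed, and the largest differences were those of the BMP type II receptor Bmpr2 (-0.42 ± 0.08, limma adjusted p = 0.0567) and the type I receptor Acvr1 (-0.47 ± 0.11, limma adjusted p = 0.104). Eng (-0.13 ± 0.07) and Tgfbr3 (0.16 ± 0.13), co-receptors for TGF-beta, did not pass.

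All 8 progenitor markers read here lay above the median level, and 1 of them, Cd34, fell (-0.51 ± 0.10, limma adjusted p = 0.0463). Their summed level (unlogged values) was 39423 to 39878 after withdrawal and 34471 to 35649 under doxycycline. Mpo, the brightest of the 8, weighs most in this sum, at 14.44 after withdrawal and 14.12 under doxycycline (log2). Mpo did not pass, and 0 of the 8 rose, so the sum does not speak for the whole list. Marker genes of several blood lineages differed between the groups beside these values. Of eosinophil markers 5 of 6 rose, and their summed level was 13077 to 13618 after withdrawal and 8979 to 9537 under doxycycline. Of mast cell and basophil markers 3 of 7 rose (30324 to 31646 against 20098 to 20732), and so did 3 of 7 granulocyte markers (139465 to 141585 against 121526 to 123630). Of megakaryocyte markers 4 of 7 fell (1658 to 1763 against 2493 to 2728), and of red cell markers 2 of 7 fell (347 to 370 against 634 to 666). Of monocyte and macrophage markers 2 of 6 fell (5171 to 5381 against 6290 to 6399). At or below the median level lay 3 of 7 red cell, 2 of 6 eosinophil, 1 of 7 megakaryocyte and 1 of 6 monocyte and macrophage markers. Differences ran from -0.36 to 1.36 among mast cell and basophil markers and from -2.22 to 0.37 among red cell markers. Not every marker therefore followed its sum. Of B cell markers, 6 of 7 of them at or below the median level, 2 fell (556 to 561 against 823 to 941). Of 8 stromal markers, 6 of them at or below the median level, Thy1 alone fell (1484 to 1519 against 2347 to 2502). Of 5 T and NK cell and 8 endothelial markers 0 passed in limma, and 0 had an unadjusted p below 0.05. Their part in the differences of Tsc22d1, Fkbp1a, Jun and Wwp1 was not tested.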

How the data were processed

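Total RNA of 6 samples was amplified as cDNA, labelled with biotin and hybridised to 1 array each, per the labels' protocols. The deposited log2 values were made by RMA, per the submitters' processing notes. RMA corrects background, brings arrays to a shared distribution and summarises each probe set. Version and chip definition: not given in the sources used here. Scanner files were not used.

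Of 45101 rows 64 manufacturer controls were left out. The platform annotation gave 34945 of the other 45037 probe sets 1 symbol, 932 several and 9160 none. Gene identifiers of 34741 matched the RefSeq table of GRCm38.p6, which changed 0 symbols. A gene with several probe sets was read from the one brightest on average across all 6 arrays. Groups came from the sample titles. limma 3.58.1 (R 4.3.3) fitted all 6 arrays by lmFit with eBayes, leaving 4 residual and 3.54 prior degrees of freedom. P-values are two-sided with Benjamini-Hochberg adjustment over all probe sets and a threshold of 0.05. The text writes rose or fell for genes past it. The steps were tested on simulated data, where the rule on recovery covered only log2 changes of 1. Every member difference was smaller in size, so the simulation does not show that changes of that size would be called.

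The members and lists were chosen with earlier results of these data known. Lists were written from general knowledge. Every member and Mecom were named, with up to 4 called genes of a list and up to 2 with the largest difference that did not pass, and any gene of a list of at most 15. Tgfbi, Cdkn1a, Cdkn1c, Cdkn2b, Cd34, Mpo and Thy1 were named after their values were seen. Promoter windows came from RefSeq and were searched for 4 motifs on both strands; 6 of 10 members had a window used here. Same-numbered replicates did not all deviate together. Alternatives were each array left out, the replicate block, a level filter, median centring, repeated quantile normalization, trend and robust options, array weights, averaged probe sets per gene and probe sets without _s_, _x_ or _a_ in their names (called plain-named below), and, added after seeing the data, a fit on 4 arrays. Figures used matplotlib 3.10.9 in Python 3.11.15.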

Additional observations from a re-analysis of the deposited data

How the results depend on the processing

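The 23 member probe sets were refitted under 15 alternative settings, where averaged probe sets gave 1 value for each of the 10 genes. The level filter, which left out Smad6, and the plain-named setting each left some of the 23 out. Of the 316 values 296 kept their direction and their side of the threshold. Another 4 passed it, and 16 had the opposite sign, with sizes up to 0.11 and adjusted p of at least 0.705. The number of member probe sets called lower was 1 above the median level and 2 with trend and robust options, and the number of member genes called lower was 1 with trend and robust options and 1 with averaged probe sets. With 1 array left out these counts were 0. Opposite signs were those of Smad2 (-0.034 with averaged probe sets, -0.11 on plain-named probe sets), Skil (0.059 with averaged probe sets), Smad3 on 1450472_s_at (0.021 with array weights) and on 1450471_at (-0.026 with 4 arrays). On plain-named probe sets Smad2 was read from 1442062_at, which gave -0.11 in the main fit too. With 1 array left out the ranges were -0.088 to 0.18 for Ski, -0.10 to 0.034 for Skil, -0.070 to 0.15 for Tgfbr1 on 1420894_at and -0.033 to 0.078 for Smad3 on 1450471_at. Tsc22d1 was 0.13 on plain-named probe sets, where it was read from 1435952_at, which gave 0.13 in the main fit too. The 3 Tsc22d1 probe sets that passed were left out there by their names. For the other opposite signs the causes were not tested.

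Pathway genes higher and lower numbered 2 and 2 in the main result. They were 5 and 8 above the median level, 5 and 5 with repeated quantile normalization, 5 and 8 with trend and robust options, and 5 and 7 with array weights. They were 0 and 1 with 4 arrays, and 0 to 3 and 1 to 1 with 1 array left out. With averaged probe sets 5 were lower, and on plain-named probe sets 1. All probe sets called, 356 higher and 530 lower, became 88 to 256 and 173 to 346 with 1 array left out, 862 and 1082 above the median level (fewer tested), 1071 and 1389 with trend and robust options, 758 and 962 with array weights, 233 and 320 on plain-named probe sets (fewer tested), and 28 and 94 with 4 arrays.

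With the replicate block 0 pathway genes were higher and 1 lower, and of all probe sets 94 were higher and 197 lower. No member was called with it. The deviations of same-numbered arrays correlated at -0.30, 0.46 and -0.03, so the numbers were not taken as pairs, and not every array correlated best with its own number. Low signal may limit 9 of the 23 probe sets, and the number of arrays limits the precision of all.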
